A study of Arabidopsis thaliana with 12 samples.

Results

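AT-HF (locus AT4G26900, also called HISN4 and HIS HF) encodes imidazole glycerol phosphate synthase, an enzyme of histidine synthesis in plastids. It was measured in *Arabidopsis thaliana* by probe 638, the single probe that the platform annotation assigns to AT-HF alone, and it is 1 of 691 genes with a probe of their own on an array of 3439 probes. AT-HF was chosen by its measured difference between *psae1* mutant and wild-type (WT) samples. Its values in this contrast are therefore given as a description, with no test.

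Histidine synthesis starts from ATP and phosphoribosyl pyrophosphate (PRPP) and runs in the plastid through a chain of enzymes named HISN1 to HISN8. AT-HF stands in the middle of the chain. Its amidotransferase part takes nitrogen from glutamine, and its cyclase part uses that nitrogen to close the imidazole ring of imidazole glycerol phosphate. The other product is AICAR, an intermediate that purine synthesis takes up again, so the enzyme stands where amino acid, nitrogen and purine metabolism meet. In bacteria the amidotransferase and the cyclase are separate proteins, HisH and HisF, from which the plant gene has its name.

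Total RNA was compared between 6 WT and 6 *psae1* samples, numbered 1 to 6 in each genotype, all of the Columbia 0 ecotype. By the labels, *psae1* lacks the photosystem I protein PSI-E1, a subunit on the stromal side of photosystem I, where electrons pass to ferredoxin. A single mutant was studied, and the labels used here give neither tissue, age nor growth conditions. The contrast bears on how transcript levels shift when PSI-E1 is missing. Whether the samples of a genotype are separate plants is not stated, so p-values reflect how far these samples scatter, and that scatter may be technical.

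The values were linear intensities, and the number of samples, 6 per genotype, limits the precision of their means. Summed over probes, WT samples held 3611 to 3678 and *psae1* samples 3436 to 3564. The level of PSAE1 was not analysed here, which leaves the labels without a check through the gene that was lost. None of the 7 root and seed markers looked for had a tested probe of its own. The log2 column medians of *psae1* lay 0.25 under those of WT on average. The median was therefore subtracted within each column after conversion to log2, and centred differences are relative to that median.

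AT-HF was less abundant in *psae1* than in WT. As deposited, its intensity in WT samples 1 to 6 was 1.01, 0.974, 0.723, 0.813, 0.855 and 0.821. In *psae1* samples 1 to 6 it was 0.528, 0.548, 0.429, 0.418, 0.411 and 0.410. The genotypes did not overlap, since the lowest WT value, in WT 3, lay above the highest *psae1* value, in *psae1* 2. WT had a mean of 0.866 ± 0.108, and *psae1* one of 0.457 ± 0.0633 (SD over 6 samples). In RNA from whole samples, fewer cells that express a gene and less of its RNA per cell cannot be told apart.

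On the centred log2 scale AT-HF averaged 0.50 ± 0.18 over WT and −0.18 ± 0.17 over *psae1* samples (SD, n = 6). The difference was −0.68 ± 0.10 (SE), which is a 1.60-fold lower level relative to the median probe. In units of the pooled SD of AT-HF within a genotype, which was 0.17, the difference was −3.88. Without centring the difference was −0.92, or 1.90-fold. The lowest WT value stood 0.18 above the highest *psae1* value on the centred scale.

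**Figure D1:**
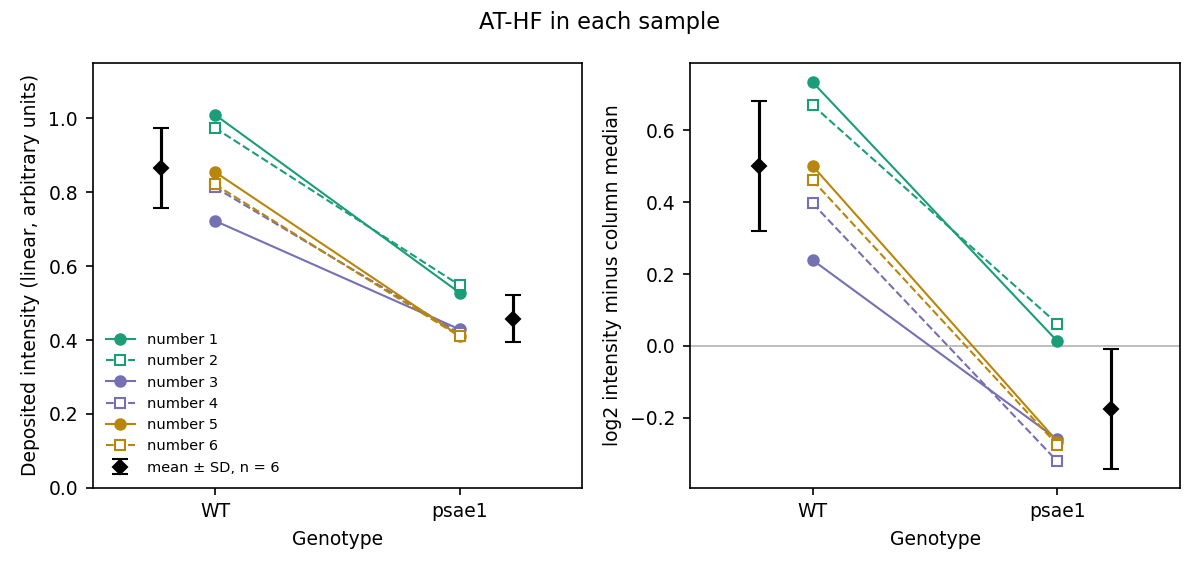
AT-HF in each of the 12 samples, as deposited intensity (left, linear) and as log2 intensity minus the median of the column (right). Lines join WT and *psae1* samples of the same number, colours mark the numbers 1 and 2, 3 and 4, and 5 and 6, and black diamonds are means with SD of 6 samples. Every line runs down, and numbers 1 and 2 are the highest in both genotypes.

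Every same-numbered comparison had AT-HF lower in *psae1*. The centred log2 difference was −0.72 in number 1, −0.61 in 2, −0.50 in 3, −0.72 in 4, −0.77 in 5 and −0.74 in 6. In deposited intensity, *psae1* held between 48.1% (number 5) and 59.3% (number 3) of the WT value of the same number. The smallest difference was in number 3, where WT had its lowest value.

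AT-HF varied within a genotype in a way that the numbers shared. Numbers 1 and 2 were the highest both in WT, with a mean of 0.70 on the centred log2 scale, and in *psae1*, with 0.04. Numbers 3 and 4 had means of 0.32 in WT and −0.29 in *psae1*, and numbers 5 and 6 had 0.48 and −0.27. Within such a pair of numbers the values differed by 0.040 to 0.16 in WT and by 0.0096 to 0.061 in *psae1*, less than the means of numbers 1 and 2 differed from those of the other pairs. Across all probes, too, numbers 1 and 2, 3 and 4, and 5 and 6 deviated together, with r from 0.33 to 0.61. The differences of the averaged pairs were −0.67, −0.61 and −0.75. The SE of the AT-HF difference was 0.14 with each pair averaged to 1 value. In such averages the replicate block was the pair, and with it the SE was 0.11. A random block for each pair gave 0.12. With the number as a replicate block over 12 samples the SE was 0.057, but that block counts the numbers of a pair as independent.

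Probes of similar WT intensity show what range of differences the same level of signal gave. Besides AT-HF, 323 probes had a mean WT intensity within 10% of its own, that is between 0.779 and 0.953, and every one could be tested. An intensity does not give the amount of RNA across different probes, so the window matches signal and not transcript number. AT4G20690, at 0.779500, was just inside the lower bound and probe 3442, at 0.779452, just outside it. At the upper bound probe 1325, at 0.9526, was just inside and probe 2404, at 0.9529, just outside.

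The 323 probes had a median difference of 0.014 on the centred log2 scale, against 0.0058 over all 3279 tested probes. Their differences lay between −0.30 and 0.37 from the 5th to the 95th percentile. AT-HF, at −0.68, was the lowest of the 324. Next came probe 1801 at −0.61 ± 0.21, probe 4173 at −0.52 ± 0.09 and probe 63 at −0.52 ± 0.10 (SE, n = 6 per genotype), none of them with a single gene listed. AT-HF and probe 1801 were 0.063 apart, less than the SE of either. Probe 1801 was uneven across the *psae1* samples, with 0.427, 0.537, 0.272, 0.398, 0.721 and 0.716 for numbers 1 to 6, whereas those of AT-HF lay between 0.410 and 0.548.

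**Figure D2:**
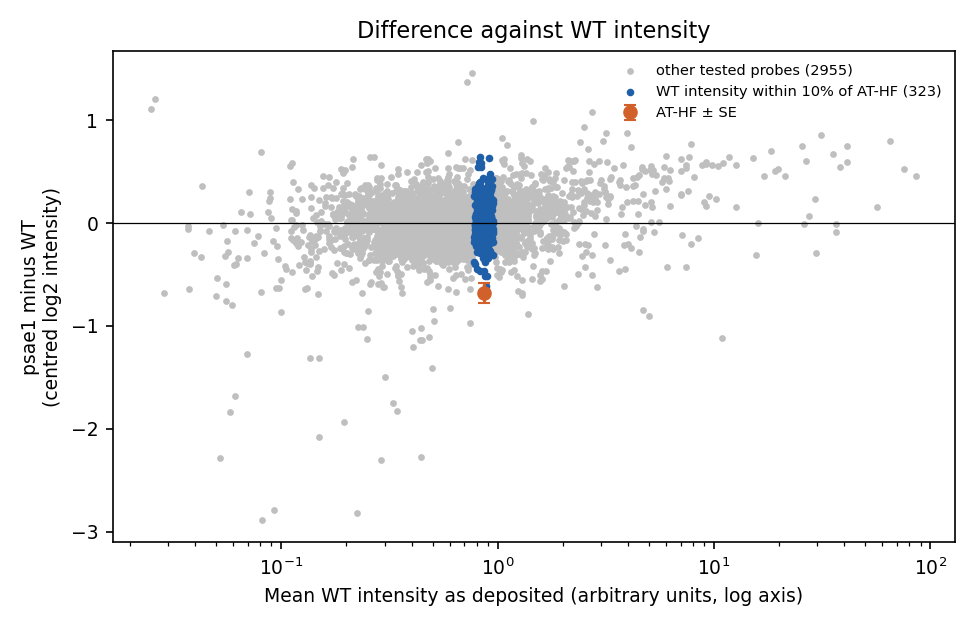
Centred log2 difference, *psae1* minus WT, of each tested probe against its mean WT intensity as deposited (log axis). Blue points are the 323 probes within 10% of the WT intensity of AT-HF, grey points are all other tested probes, and the orange point is AT-HF with its SE. AT-HF lies at −0.68, under all blue points, while dimmer grey points reach further down.

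The place of AT-HF among these probes was not the same in every number. Taken one number at a time, AT-HF was never the lowest of the 324. It was in place 2 from the lowest in numbers 2 and 4, place 4 in numbers 1 and 3, place 6 in number 5 and place 5 in number 6. Its pooled SD of 0.17 was above the median of 0.14 for the 323 probes, and 84 of them had a larger one. Without numbers 5 and 6, AT-HF was at −0.64 and in place 3.

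In the limma fit of 12 samples, 29 of the 323 probes were lower in *psae1* at an adjusted p under 0.05, which is 8.98%, against 10.9% of all tested probes. Another 43 were higher, 13.3%, against 11.9% of all tested probes. With the numbers averaged in pairs, limma called 0 of the 323 lower and 1 higher (0.310%). Over all tested probes that fit called 1.16% lower and 1.16% higher. At an unadjusted p under 0.05 it had 19 of the 323 lower and 29 higher, against 283 and 315 of all 3279 tested probes. Averages with the replicate block called 5 of the 323 lower (1.55%) and 6 higher (1.86%), against 2.71% and 3.57% of all tested probes.

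Probes with *psae1* wholly below WT were uncommon, both at this intensity and over all tested probes, and separation in the other direction was not counted. Of the 323 probes 12 had all *psae1* values under all WT values on the centred scale, 3.72%, against 5.06% of all tested probes. With AT-HF added, the gap of 0.18 of AT-HF was in place 3 of 13. The gap was wider for probe 3099, at 0.25, and probe 4173, at 0.20. AT4G20690 followed with 0.13.

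Of the 323 probes, 58 had a gene of their own. Their differences ran from −0.38, for AT4G20690, to 0.43, for AT5G11650, with a median of 0.0053, so AT-HF lay below all 58. The 10 genes nearest to AT-HF in WT intensity had mean WT intensities from 0.849 to 0.879. Of all tested probes, the 12-sample limma fit called 10.9% lower and 11.9% higher. Among these 10 genes AT2G46630 fell by 0.37 ± 0.08 (SE, limma adjusted p = 0.0064). AT5G11650 and AT3G52070 rose by 0.43 ± 0.06 and 0.29 ± 0.08 (adjusted p = 0.00047 and 0.021), while 7 did not pass. None of these 3 passed with numbers averaged (limma adjusted p = 0.15, 0.071 and 0.27), and AT3G52070 also missed the threshold with the replicate block (adjusted p = 0.0501).

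Over the whole array, AT-HF was in place 7 from the lowest of 653 tested genes with a probe of their own. Of all 3279 tested probes, 43 had a lower difference. In 15 of these 43 at least 1 sample was listed at 0 and left out as missing. Of the other 28, 23 were dimmer in WT than the window around AT-HF and 5 were brighter.

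The probes next to AT-HF by probe number did not share its difference. Probe 637 was at 0.07 ± 0.09 and probe 639 at −0.09 ± 0.09 on the centred log2 scale (SE, n = 6 per genotype), and neither passed (limma adjusted p = 0.60 and 0.49). The running median of the difference over neighbouring probe numbers was 0.034 at AT-HF. With this removed, AT-HF was at −0.71.

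The other enzymes of the histidine chain were largely out of reach of named probes. Of the 11 genes of the histidine list, AT-HF alone had a probe of its own. There were 2 probes, 301 and 1473, that each list 2 genes, all of them in the histidine list, and such probes cannot tell the listed genes apart. They were taken in after the data were seen.

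Probe 301 had intensities of 0.941, 0.754, 0.758, 0.665, 0.638 and 0.616 in WT 1 to 6, and of 0.689, 0.605, 0.585, 0.542, 0.448 and 0.401 in *psae1* 1 to 6. It was lower in *psae1* in 6 of 6 same-numbered comparisons, and the genotypes overlapped. The centred difference was −0.18 ± 0.13 (SE, n = 6 per genotype) and did not pass (limma adjusted p = 0.32). With the number as replicate block it passed at the edge (limma adjusted p = 0.049). In averages with the pair as replicate block it did not (limma adjusted p = 0.37). With numbers averaged and no block, probe 301 did not pass (limma adjusted p = 0.58), and leaving out 1 sample gave −0.25 to −0.10. Without centring probe 301 was at −0.43 (adjusted p = 0.016), in a fit that called 1634 of all 3279 tested probes lower. Probe 1473 had intensities of 0.286, 0.347, 0.236, 0.239, 0.248 and 0.234 in WT 1 to 6 and of 0.230, 0.274, 0.182, 0.201, 0.229 and 0.198 in *psae1* 1 to 6. Its centred difference was −0.02 ± 0.11 (limma adjusted p = 0.90), and it lay above 0 after quantile and cyclic loess normalization. Both probes were thus nearer to 0 than AT-HF, at −0.68, but whether they differ from it was not tested.

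Genes of the pathways that feed histidine synthesis, or run beside it, were compared through probes of their own. Of 132 genes in 6 lists, 8 besides AT-HF could be tested, 3 in PRPP and purine synthesis and 5 in other amino acid synthesis of the plastid. In the 12-sample limma fit 2 of the 8 rose, 0 fell and 6 did not pass, where 11.9% of all tested probes were higher and 10.9% lower. At an unadjusted p under 0.05, 2 of the 8 were higher and 0 lower, against 1194 of all 3279 tested probes in either direction. Their median difference was 0.12, against 0.0058 over all tested probes. Without centring 1 of the 8 was higher and 1 lower, with a median of −0.12. In that fit limma called 111 of all 3279 tested probes higher and 1634 lower. The lists for histidyl-tRNA synthetases and for glutamine and nitrogen supply had no tested gene.

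In PRPP and purine synthesis, PRPP synthetase makes the sugar phosphate that both pathways use. Of 2 genes for it, AT2G44530 rose by 0.39 ± 0.12 (SE, n = 6 per genotype, limma adjusted p = 0.029). Its deposited intensity was 0.168, 0.212, 0.181, 0.161, 0.194 and 0.152 in WT 1 to 6, and 0.200, 0.206, 0.163, 0.159, 0.241 and 0.219 in *psae1* 1 to 6, so that the genotypes overlapped. Without centring it was at 0.15 and did not pass (adjusted p = 0.28), and with drift along probe numbers removed it was at 0.26 (adjusted p = 0.16). It did not pass with numbers averaged (adjusted p = 0.20), nor without any 1 of WT 1, 4 or 6 or *psae1* 5 or 6 (adjusted p = 0.056 to 0.063). The other, AT2G35390, was at 0.03 (adjusted p = 0.87). AT1G31220, for the purine enzyme PUR3, was at 0.17 (adjusted p = 0.18), and without centring at −0.07.

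Other amino acid synthesis of the plastid had 1 gene that rose among 5. AT3G23940, for dihydroxy-acid dehydratase of branched-chain amino acid synthesis, rose by 0.47 ± 0.07 (SE, n = 6 per genotype, limma adjusted p = 0.00035). Its deposited intensity was 1.17, 1.11, 1.16, 1.13, 1.21 and 1.26 in WT 1 to 6 and 1.39, 1.24, 1.39, 1.35, 1.34 and 1.48 in *psae1* 1 to 6. It was higher in *psae1* in 6 of 6 same-numbered comparisons, and the deposited values overlapped through *psae1* 2 alone. Without centring the rise was 0.22, and with numbers averaged it did not pass (adjusted p = 0.063), while averages with the replicate block did (adjusted p = 0.039). AT3G58610, for ketol-acid reductoisomerase, the enzyme just before it, was at 0.02 (adjusted p = 0.89).

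The other 3 genes also did not pass. AT5G10920, for argininosuccinate lyase, which completes arginine, was at 0.16 (limma adjusted p = 0.41). AT3G53580, for diaminopimelate epimerase of lysine synthesis, was at 0.09 (adjusted p = 0.65). CBL, cystathionine beta-lyase of methionine synthesis, was at −0.05 (adjusted p = 0.83).

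Across the 6 lists, 7 probes listed several genes of the same list, the histidine probes included. Of these 1 was higher, 1 lower and 5 did not pass, so that 1 of 7 each way stands beside 11.9% and 10.9% of all tested probes. Probe 2684, with 2 genes of the purine list, had intensities of 0.621, 0.537, 0.705, 0.774, 0.680 and 0.620 in WT 1 to 6 and of 0.794, 0.816, 0.987, 1.09, 1.11 and 0.946 in *psae1* 1 to 6, so that the genotypes did not overlap as deposited. It was higher by 0.79 ± 0.11 (SE, limma adjusted p = 0.00029), and passed with numbers averaged (adjusted p = 0.032). Probe 515, which lists the same 2 genes, was at 0.26 ± 0.18 (adjusted p = 0.31), and the difference between these probes was not tested. Probe 1679, with 2 genes of the amino acid list, was lower by 0.33 ± 0.08 (adjusted p = 0.0099), and did not pass with numbers averaged (adjusted p = 0.18).

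**Figure D3:**
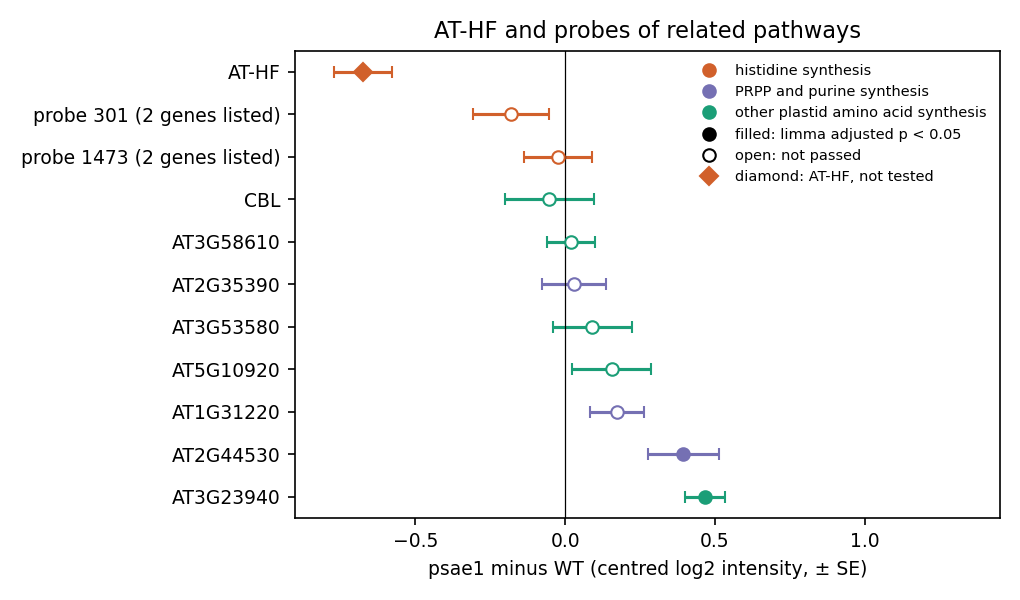
Centred log2 difference, *psae1* minus WT, with its SE (6 samples per genotype) for AT-HF (diamond, not tested), the 2 probes that list 2 genes of histidine synthesis each, and the 8 tested genes of related pathways. Filled circles passed an adjusted p of 0.05 in the 12-sample limma fit, open circles did not. Of the probes drawn, AT-HF lies furthest below 0 at −0.68, and AT3G23940 furthest above at 0.47. Probes with several genes of the other lists are not drawn, among them probe 2684 at 0.79 and probe 1679 at −0.33.

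Genes with a pattern like that of AT-HF were picked among 649 genes with a probe of their own and a value in every sample. Over the 12 centred values, the highest correlations with AT-HF were those of AT4G22830 and AT2G36480 (r = 0.91 each), AT2G46630 (0.91), AT4G18180 (0.89) and AT4G17260 (0.89). The 95th percentile of r was 0.76 over the 649 genes. The 12 points share the genotype difference and the pairs of numbers, so these values describe the pattern. All 5 genes were lower in *psae1*, by 0.37 to 1.13 on the centred log2 scale. That direction follows from choosing them by r with AT-HF and is no separate result.

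Deviations from the genotype means leave the genotype difference out. Over these, the genes most like AT-HF were AT2G23890 (r = 0.89), AT5G01860 (0.88), AT4G33760 (0.86), AT2G41950 (0.86) and MAMI (0.85), against a 95th percentile of 0.69. None of them was among the 5 above. As for AT-HF, numbers 1 and 2 were the highest *psae1* samples for all 5 genes, which the choice by r favours. In WT they were the highest for AT2G23890, AT5G01860 and MAMI, but not for AT4G33760 and AT2G41950. Their differences between genotypes lay between −0.15 and 0.11, and none passed in the limma fit. AT2G36480 was high by both measures, with r = 0.84 over deviations, whereas AT4G22830 and AT4G18180 had 0.38 and 0.32.

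**Figure D4:**
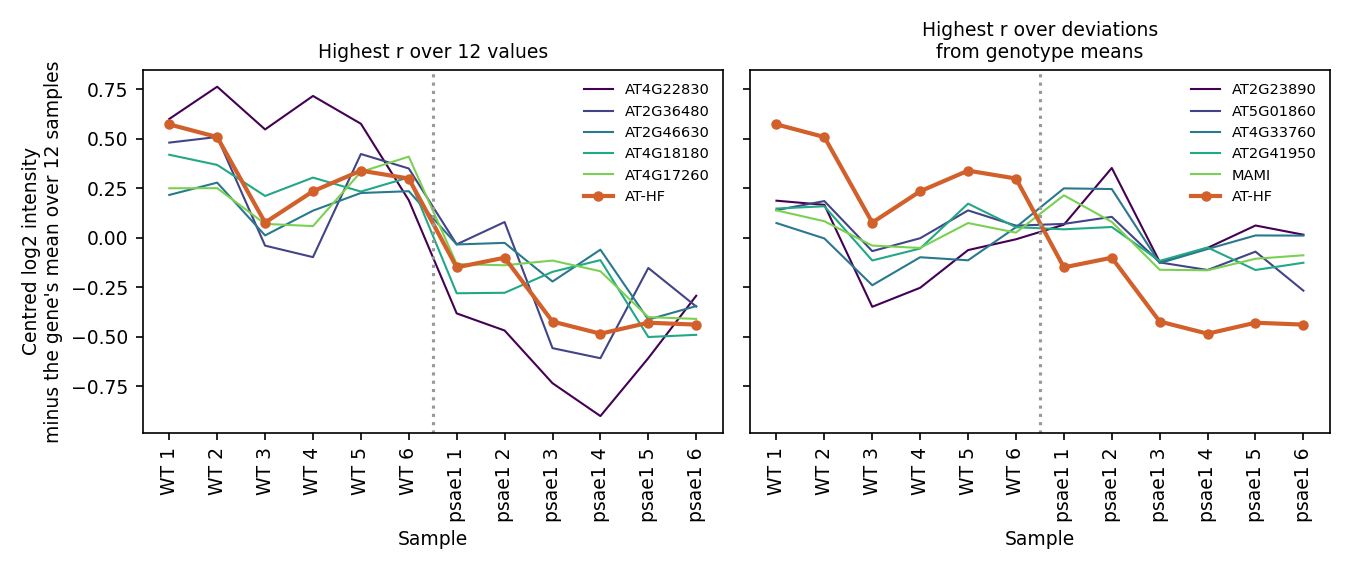
Centred log2 intensity minus the mean of each gene over 12 samples, for AT-HF (orange) and the 5 genes with the highest r over 12 values (left) or over deviations from the genotype means (right). Samples stand in the order of their labels, and lines only guide the eye. On the left every gene steps down from WT to *psae1*. On the right the 5 genes differ between genotypes by −0.15 to 0.11, while numbers 1 and 2 stand above 3 and 4 within a genotype. The choice of genes by r favours the step on the left and the shared order of numbers on the right.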

How the data were processed

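The deposited table holds 1 linear intensity per probe and sample. Background correction, scaling, scanner and array layout are not given in the sources used here. No value was below 0, and 9 *psae1* values lay within 1e-06 of 100. Here intensities were converted to log2, with 0 as missing, and centred on each column's median. Probes with at least 3 values per genotype (3279 of 3439) entered a two-sided test by limma 3.58.1 (R 4.3.3; functions lmFit, eBayes), and p-values of all tested probes were adjusted after Benjamini and Hochberg, with 0.05 as the threshold. The fit was tested on simulated data in which all samples were independent. Those data lacked the joint deviation of paired numbers, so that test cannot show how such deviation affects the p-values. Figures used matplotlib 3.10.9.

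Genes were named from the platform annotation (692 probes with 1 gene, 870 with several, 1877 not listed) and a gene table of TAIR10.1, used for names alone, in which 690 of the 692 matched. AT-HF, the lists and the rules were chosen with earlier results of these data known. The text names AT-HF, the tested list genes, the 5 genes most like AT-HF by each of 2 measures, the 10 nearest in WT intensity (those past the threshold by name), the extremes and bounds of the window, and adjacent probe numbers.

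Equal numbers deviated together across the genotypes (r from 0.23 to 0.42 over 3257 probes, against at most 0.061 for numbers of different pairs). The numbers, singly or as pairs, thus match samples across the genotypes, by the data and not the labels. These deviations were taken from the genotype means and cancel within a genotype. The low r for numbers of different pairs is therefore in part built in. Alternatives were other scalings, averages of paired numbers, fixed and random blocks, array weights, other filters and windows, and omission of samples.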

Additional observations from a re-analysis of the deposited data

Results flagged for a closer look

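For AT-HF, the 8 tested list genes and 5 probes that list several genes, the 6 values of each genotype were searched for a sample far from the others, in 28 sets of values. With 6 values taken as separate, chance gives about 1 in 20 such sets, and 1 was found. Paired numbers deviate together, and how that changes this rate was not tested. For AT3G53580, the diaminopimelate epimerase gene, *psae1* 5 stood at −1.20 on the centred log2 scale, whereas the remaining *psae1* values spanned −1.996 to −1.76. The gap made up 0.699 of the whole range. No AT-HF value stood apart in this way.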

How the results depend on the processing

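The AT-HF difference stayed below 0 in all 28 alternatives. It was −0.73 to −0.63 in all but the values as deposited, where it was −0.92. Leaving out 1 sample gave −0.73 to −0.63. Averages, blocks and the filter for values in all 12 samples could not move it, since no AT-HF value was missing. AT-HF was chosen on these same samples, so the alternatives are no separate support for it. Its place from the lowest among probes of like WT intensity was 2 with array weights, with drift along probe numbers removed and in a window of 20%, 3 without numbers 5 and 6 and in numbers 1, 3 and 5 alone, and 1 to 2 when 1 sample was left out. Limma called 748 probes in all, 76 in averages of paired numbers, 206 in averages with the replicate block, 189 with a random block, 1745 as deposited (111 higher and 1634 lower), 393 without numbers 1 and 2, 43 in numbers 1, 3 and 5 and 33 in 2, 4 and 6. The replicate block over 12 samples gave 931, and besides the edge call of probe 301 it changed the call of no list gene. Of the 323 probes of like WT intensity 72 were called, and 1, 11, 12, 168 (6 higher and 162 lower), 31, 1 and 0 in the same alternatives (the last with 38 at an unadjusted p under 0.05); windows of 5% and 20% held 34 called of 165 and 155 called of 739. Of the 8 list genes 2 were called, 0 by limma in averages and in 3 samples per genotype (2 at an unadjusted p under 0.05 in each), and 1 with array weights, with drift removed, without numbers 1 and 2 or 5 and 6, with the random block and in averages with the replicate block, and 1 to 2 when 1 sample was left out; as deposited 1 was higher (AT3G23940) and 1 lower (AT3G58610), AT2G44530 was at 0.15 (adjusted p = 0.28), and the median of the 8 was −0.12. The difference, *psae1* minus WT, lies lower as deposited than centred for every probe measured in all samples. Averages and subsets hold fewer samples. Beyond that the cause of these changes was not tested. Sign changes fell on list genes and probes that had not passed. As deposited, AT5G10920 was at −0.092, AT1G31220 at −0.073, AT2G35390 at −0.22, AT3G58610 at −0.23 (adjusted p = 0.045) and AT3G53580 at −0.16. CBL was at 0.057 with array weights and 0.082 without numbers 5 and 6, where AT3G53580 was at −0.0023 and −0.085, and probe 515 at −0.078 without these numbers. AT3G58610 was at −0.018 with drift removed and −0.061 without numbers 3 and 4, and AT2G35390 at −0.040 in numbers 1, 3 and 5. Probe 1473 was at 0.024 after cyclic loess and 0.0051 after quantile normalization, and at 0.019 without numbers 1 and 2. Leaving out 1 sample gave −0.16 to 0.043 for CBL, −0.040 to 0.082 for AT2G35390, −0.024 to 0.055 for AT3G58610, −0.015 to 0.14 for AT3G53580 and −0.084 to 0.055 for probe 1473. Of the 5 genes most like AT-HF over 12 values, 2 remained as deposited, 4 after quantile and 3 after cyclic loess normalization; over deviations 5, 3 and 3 did. These counts of likeness were added after seeing the data.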
